A study of Mus musculus with 6 samples.

Results

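The CC chemokines Ccl2, Ccl3, Ccl4, Ccl5, Ccl7, Ccl9, Ccl11, Ccl12 and Ccl19 and the chemokine receptor Ccr2 were followed across the cell types of the mouse brain after ischemic stroke. The members were taken by gene symbol from the count matrix, where these 10 symbols carried 11 of the 32285 gene IDs, because Ccl19 is listed under 2 IDs. All 10 symbols were found in cells, and each passed 100 unique molecular identifiers (UMIs, which count captured RNA molecules). Single cells came from the cortex of male RGS5::GFP het mice (C57bl/6) aged 8 to 12 weeks, in which 1 allele of the pericyte gene Rgs5 is replaced by green fluorescent protein, so that every group, controls included, lacks 1 Rgs5 copy and the Contra tissue comes from mice with a stroke. The middle cerebral artery was closed permanently by electrocoagulation of its distal part, and live cells depleted of neurons were sorted from the ipsilateral (IPSI) or contralateral (Contra) hemisphere at 1, 12 or 24 h. Each of the 6 groups (Contra 1h, IPSI 1h, Contra 12h, IPSI 12h, Contra 24h and IPSI 24h) is 1 library of droplet-based 3' single-cell RNA sequencing, and the labels name no animal behind a library. The matrix numbers its libraries 1 to 6 and nothing used here ties a number to a labelled group, so all cells were treated as 1 pooled sample, each library is given by its own value, and no hemisphere or time point was compared.

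CC chemokines are small secreted proteins that bind G protein-coupled receptors on leukocytes and direct their movement along gradients. Ccl2, Ccl7 and Ccl12 are monocyte attractants that act through Ccr2, Ccl11 (eotaxin) attracts eosinophils through Ccr3, and Ccl3, Ccl4, Ccl5 and Ccl9 act on myeloid and T cells, in part through Ccr1. Ccl19 is a homeostatic ligand of Ccr7, known from the stromal cells of lymph nodes. In the brain, resident microglia, border macrophages, vascular cells and invading leukocytes can all make such ligands, so the source cell of each gene was described here.

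Of the 9 ligand genes, 8 lay on chromosome 11 in 2 groups (mm10, positions from GENCODE vM21). Ccl2 (82035571 to 82037453), Ccl7 (82045712 to 82047525), Ccl11 (82057823 to 82062955) and Ccl12 (82101845 to 82103400) followed each other on the plus strand, with 8258, 10297 and 38889 bases between neighbours. The second group began 1422377 bases after Ccl12 and held Ccl5 (83525778 to 83530518), Ccl9 (83572919 to 83578636) and Ccl3 (83647844 to 83649355) on the minus strand and Ccl4 (83662584 to 83664683) on the plus strand. Ccl19 lay on chromosome 4 (42754525 to 42756577) and Ccr2 on chromosome 9 (124101950 to 124113557). The second Ccl19 ID is on an unplaced scaffold and had 0 UMIs, and because near-identical copies of Ccl19 exist in the mouse genome its counts are uncertain.

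The 250 bases before the start of transcription were available for 5 of the 10 genes (RefSeq, GRCm38) and are shown for Ccl12, Ccl9 and Ccl3, the ligands among them on chromosome 11, whose levels in microglia-like cells and macrophages are compared here. Capitals mark matches on either strand to the TATA box (TATAAA), to the AP-1 motif (TGANTCA) or to the NF-kappaB consensus.
Ccl12, chr11:82101595-82101844, plus strand: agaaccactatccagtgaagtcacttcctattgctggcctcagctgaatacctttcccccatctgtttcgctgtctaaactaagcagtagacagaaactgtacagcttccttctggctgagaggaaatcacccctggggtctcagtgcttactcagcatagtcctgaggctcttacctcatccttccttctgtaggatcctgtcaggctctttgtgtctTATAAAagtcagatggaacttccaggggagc
Ccl9, chr11:83578637-83578886, minus strand: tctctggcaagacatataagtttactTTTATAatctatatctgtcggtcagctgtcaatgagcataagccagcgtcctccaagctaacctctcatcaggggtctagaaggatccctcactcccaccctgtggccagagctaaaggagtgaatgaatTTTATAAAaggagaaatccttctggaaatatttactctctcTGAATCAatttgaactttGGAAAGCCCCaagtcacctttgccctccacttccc
Ccl3, chr11:83649379-83649628, minus strand: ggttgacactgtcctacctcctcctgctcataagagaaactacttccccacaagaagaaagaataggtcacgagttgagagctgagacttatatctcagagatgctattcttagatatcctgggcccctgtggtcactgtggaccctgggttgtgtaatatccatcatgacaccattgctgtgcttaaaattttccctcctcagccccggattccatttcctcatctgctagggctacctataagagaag
Ccl12 held TATAAA from base -31 to -26, counted back from the start. Ccl9 held the TATAAA letters at 3 places, of which those from -94 to -89 and from -92 to -87 overlap on opposite strands, the AP-1 motif from -53 to -47 and an NF-kappaB match from -35 to -26. The E-box CACGTG, also searched, was in none of the 5 windows, and no match to any of the 4 motifs was found in those of Ccl3, Ccl19 and Ccr2. Among all 32851 windows of this length in the table, 12.4% held TATAAA, 6.75% the AP-1 motif, 7.25% the NF-kappaB consensus and 6.02% CACGTG.

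After filtering, 17357 cells remained, 1221 to 5873 per library, with a median of 5053 to 5660.5 UMIs per cell, out of 12427757 to 40793772 UMIs per library over all barcodes. The filters that the study states, applied alone, left 19864 barcodes. Libraries 1 and 2 were the smallest. Of the cell barcodes, 26 occurred in more than 1 library, and 288 cells (1.66%) were called doublets and kept. Clusters were named from fixed markers that include no CC gene, and are written as "-like" because the names were rebuilt here. The classes were microglia-like (8127 cells), oligodendrocyte-like (2819), endothelial-like (2665), astrocyte-like (1166), pericyte-like (834), neuroblast-like (341), monocyte-derived macrophage-like (324), smooth muscle-like (170), neutrophil-like (161), dendritic-like (121), perivascular macrophage-like (71), T lymphocyte-like (65), B lymphocyte-like (53), NK-like (32), fibroblast-like (28) and choroid plexus-like cells (22), and 358 cells stayed unnamed. The microglia-like cells held all 8 of their markers at their highest level of any class, among them P2ry12, and the perivascular macrophage-like cells all 7 of theirs, among them Mrc1, whereas the dendritic-like cells did so for 5 of 7 and the monocyte-derived macrophage-like cells for 6 of 8. The monocyte-derived macrophage-like cells lay almost entirely in libraries 4 (107 cells) and 6 (212 cells). Levels are given as CPM, the UMIs of a gene per 1000000 UMIs of the same cells, with exact 95% Poisson intervals, which cover counting error only. Because 3' ends were counted, levels are compared between cells and not between genes.

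The CC ligands fell into different source cells. Among the named classes, Ccl2 and Ccl7 were highest in fibroblast-like and perivascular macrophage-like cells, Ccl3 and Ccl12 in perivascular macrophage-like cells, Ccl4 in microglia-like cells, Ccl5 in NK-like cells, Ccl9 and Ccr2 in monocyte-derived macrophage-like cells, Ccl11 in pericyte-like cells and Ccl19 in fibroblast-like cells. For 4 of the 10 genes (Ccl5, Ccl9, Ccl11 and Ccl19) the leading class was at least 3 times the next one, while 14.1% of the 14149 genes with at least 100 UMIs had such a lead. Of these, Ccl5 was at 1.73 times without library 2, and Ccl19 at 1.13 times with 35 unnamed mural cells counted as pericyte-like. The lead of Ccl11 rested on 58 of the pericyte-like cells, described further on, without which pericyte-like cells were at 17.1 CPM. Fibroblast-like cells were at 30.1 CPM, but from 5 UMIs, all in library 6, and at 6.2 CPM without their top cell. The order of these classes without the 58 cells is therefore not settled. Microglia-like cells, the most numerous class, nevertheless held 92.3% of all Ccl4 UMIs, 93.1% of Ccl12, 89.2% of Ccl3, 73.4% of Ccl2, 49.1% of Ccl9 and 33.2% of Ccl7.

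**Figure D1:**
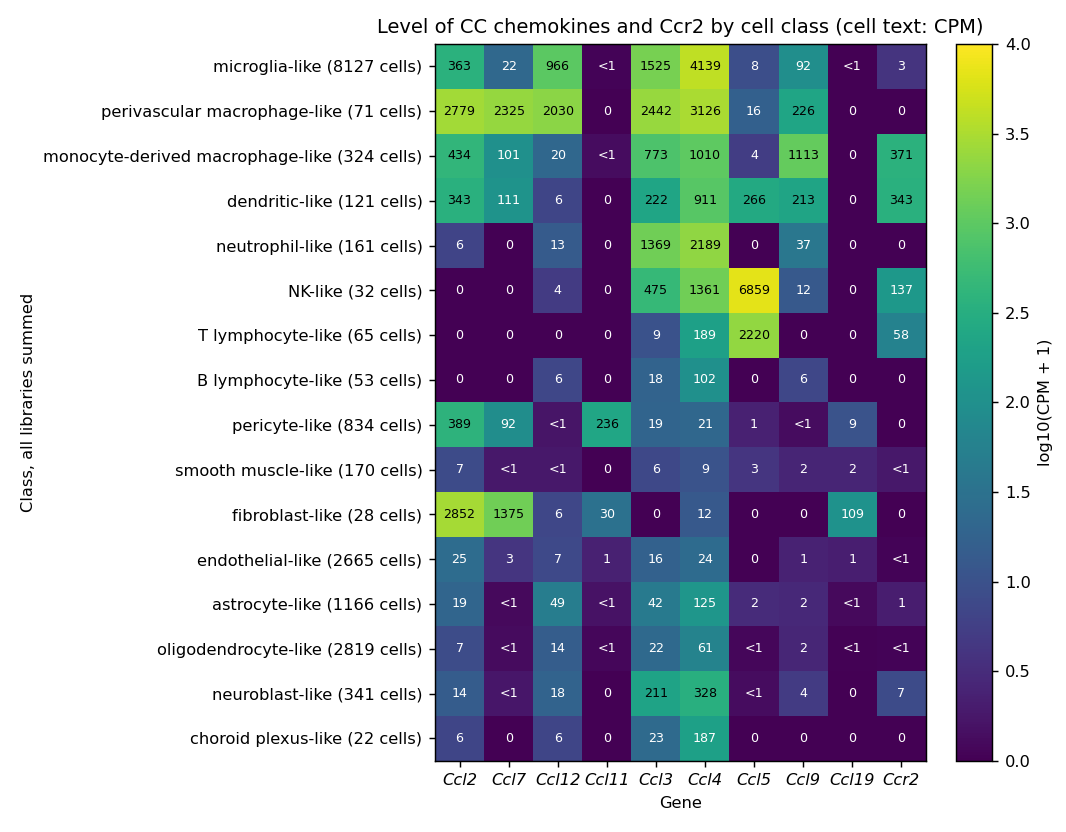
Level of each gene (columns) in each named class (rows, with the number of cells), all 6 libraries summed; colour shows log10(CPM + 1) and the text in each field is the CPM. Ccl2, Ccl7 and Ccl12 share their high level in perivascular macrophage-like cells (2779, 2325 and 2030 CPM), whereas Ccl5 stands out in NK-like cells (6859 CPM) and Ccl11 in pericyte-like cells (236 CPM).

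**Figure D2:**
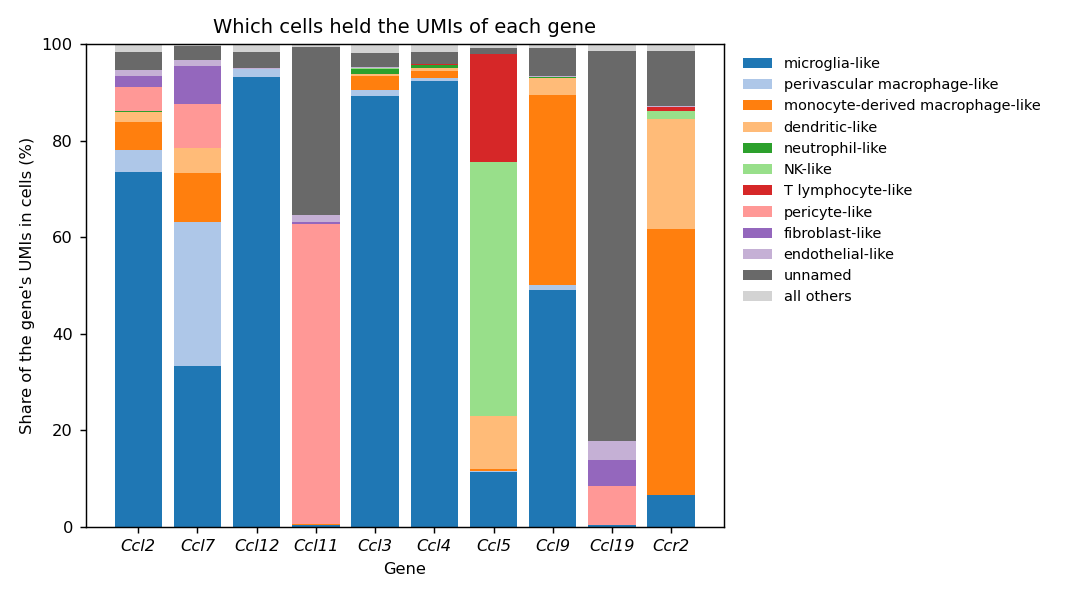
Share of the UMIs of each gene (vertical axis, %) held by each class, with unnamed cells in dark grey and all remaining classes in light grey. Microglia-like cells fill most of the bars of Ccl2, Ccl3, Ccl4 and Ccl12, and unnamed cells hold 80.7% of the Ccl19 UMIs and 34.8% of the Ccl11 UMIs.

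Ccl2, the main monocyte attractant, was measured at 2852 CPM (95% interval 2601 to 3121) in fibroblast-like cells and at 2779 CPM (2613 to 2952) in perivascular macrophage-like cells, a ratio of 1.03 (0.919 to 1.15). The fibroblast-like value rested on few cells. Of its 473 UMIs, 300 came from a single cell, and 423 came from the 7 fibroblast-like cells of library 2, whereas libraries 1, 3 and 5 gave 0, 0 and 1 UMI from 3, 5 and 3 cells and library 4 had no such cell. Without library 2 the fibroblast-like level was 375 CPM. In perivascular macrophage-like cells Ccl2 was found in every library, at 1452, 574, 2198, 6636, 1624 and 252 CPM in libraries 1 to 6, from 3, 3, 25, 17, 12 and 11 cells. Library 4 was the highest and library 6 the lowest. Ccl2 was at 434 CPM in monocyte-derived macrophage-like, 389 in pericyte-like, 363 in microglia-like and 343 in dendritic-like cells, and in the last of these 226 of 461 UMIs came from 1 cell.

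Ccl7, a relative of Ccl2 encoded next to it, followed Ccl2 in its sources. It was highest in perivascular macrophage-like cells (2325 CPM, 2174 to 2484), where libraries 1 to 6 gave 484, 919, 1751, 5176, 870 and 1683 CPM, and next highest in fibroblast-like cells (1375 CPM), a ratio of 1.69. In library 6, where both classes had at least 10 cells, the levels were 1683 and 1567 CPM and the interval of their ratio spanned 1 (1.07, 0.815 to 1.41). Microglia-like cells held Ccl7 at 21.7 CPM, so that the perivascular macrophage-like level was 107 times higher (97.9 to 118), against 7.65 times (7.18 to 8.14) for Ccl2. Of the 8 members with at least 100 UMIs in both classes together, Ccl2 and Ccl7 were at least 3 times higher in perivascular macrophage-like than in microglia-like cells, and 3.63% of the 10718 genes tested were. For Ccl7 this held in each library with at least 10 cells of both (47.6 to 188 times), whereas for Ccl2 the ratio was 6.99, 11.2 and 6.51 in libraries 3, 4 and 5 and 1.25 (0.696 to 2.06) in library 6. Over the 16 named classes, the pair Ccl2 and Ccl7 had the highest Pearson correlation of log2(CPM + 1) of any pair of members (r = 0.94), a description over classes that share libraries.

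Ccl12, the third monocyte attractant of this chromosomal group, differed from Ccl2 and Ccl7 in that microglia-like cells were its second source. It was at 2030 CPM (1889 to 2179) in perivascular macrophage-like and 966 CPM in microglia-like cells, and at 49.3 CPM or less in each other named class. The order of both classes depended on the library. In microglia-like cells, libraries 1 to 6 gave 93.3, 99.3, 135, 2451, 149 and 1298 CPM, so that libraries 4 and 6 were far above the others. In perivascular macrophage-like cells they gave 726, 345, 2787, 2000, 1377 and 2356 CPM, with no such step. Accordingly, the ratio of perivascular macrophage-like to microglia-like cells was 20.6 (18.3 to 23.2) in library 3 and 9.21 (7.44 to 11.3) in library 5, but 0.816 (0.704 to 0.941) in library 4 and 1.81 (1.52 to 2.14) in library 6. Of the 8 members with at least 100 UMIs in microglia-like cells, Ccl12, Ccl5 and Ccl7 had a highest library at least 3 times the median library, against 2.61% of the genes tested. For Ccl12 it was 17.2 times. Ccl5 was low throughout, at 29.7 CPM in its highest microglia-like library, below its 39.8 CPM in barcodes of 1 to 50 UMIs, which hold mostly free RNA. Its call is therefore not read as a difference of the microglia-like cells.

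**Figure D3:**
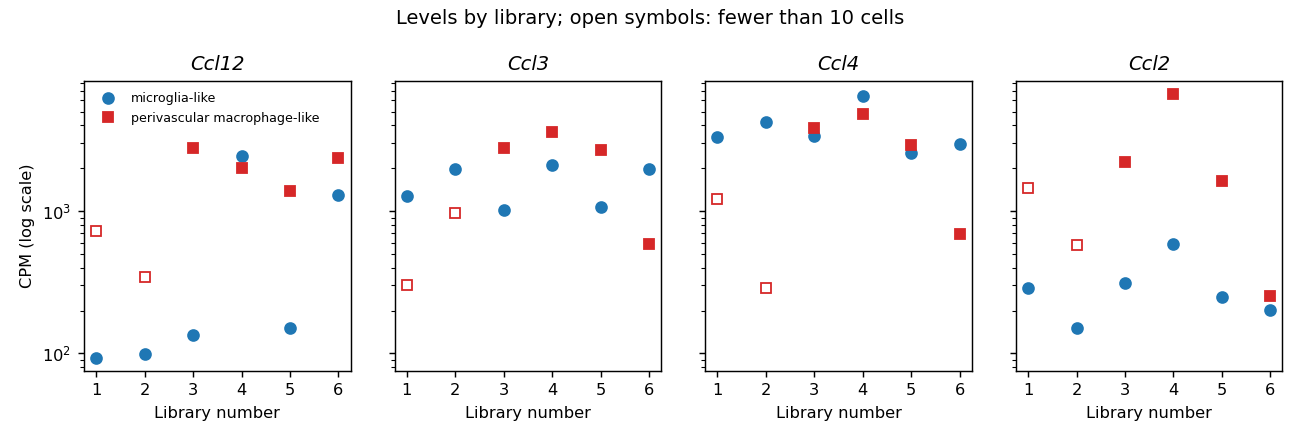
CPM on a log scale for Ccl12, Ccl3, Ccl4 and Ccl2 in each numbered library, for microglia-like (circles) and perivascular macrophage-like cells (squares, open where the library had fewer than 10 cells). Microglia-like Ccl12 lies between 93.3 and 149 CPM in libraries 1, 2, 3 and 5 and at 2451 and 1298 CPM in libraries 4 and 6.

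Within the microglia-like cells, the inflammatory chemokines Ccl3 and Ccl4, which attract myeloid and T cells, differed between the 7 clusters, each named here by 1 of its leading genes. The P2ry12-led cluster (1855 cells), whose leading genes also included hemoglobin genes, was lowest, with 153 CPM of Ccl3 and 395 CPM of Ccl4. The Maf-led (533 and 1815 CPM) and Tagap-led clusters (1061 and 3695 CPM) lay between. The Cd83-led cluster (1287 cells), led also by Atf3, Fosb and Egr1, held 2571 and 6879 CPM, and the Lpl-led cluster (955 cells), led also by Mmp12 and Spp1, 3764 (3721 to 3808) and 9040 CPM (8972 to 9108). In libraries 4 and 6 the Lpl-led cluster held 4586 and 2916 CPM of Ccl3 and 13262 and 4167 CPM of Ccl4. The Cd83-led cluster held 2667 and 1819 CPM of Ccl3 and 8040 and 3214 CPM of Ccl4 there. In libraries 1, 2, 3 and 5 its Ccl4 was at 4451 to 8212 CPM. The order for Ccl2 was the same up to the Lpl-led cluster, from 45.4 to 639 CPM.

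Ccl12 followed another order. It was at 155 to 277 CPM in the P2ry12-led, Maf-led, Tagap-led and Cd83-led clusters, at 2492 CPM in the Lpl-led cluster and highest in the Gpr84-led cluster, of which Ccl12 was itself the first gene by fold although no CC gene entered the clustering (514 cells, 4947 CPM, 4871 to 5025), where Ccl3 (826 CPM) and Ccl4 (1906 CPM) were well below the Cd83-led cluster. The Ifit3-led cluster, 58 cells led by interferon-induced genes, held 4069 CPM of Ccl12 over all libraries. In library 3, the only library with at least 20 of its cells, its Ccl12 was at 1743 CPM. It was the one microglia-like cluster with Ccl5 above 20 CPM (195 CPM, 60 UMIs in 4 cells). The clusters were not spread evenly over libraries: the Lpl-led cluster made up 23.4% and 41.0% of the microglia-like cells of libraries 4 and 6 and at most 1.28% in each other library, and the Gpr84-led cluster 12.5% and 21.1% against at most 1.62%. Within clusters the libraries still differed. In the Cd83-led cluster Ccl12 was at 48.5, 67.0, 125, 596, 150 and 356 CPM in libraries 1 to 6, and in the Gpr84-led cluster at 7723 CPM in library 4 and 2258 CPM in library 6.

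**Figure D4:**
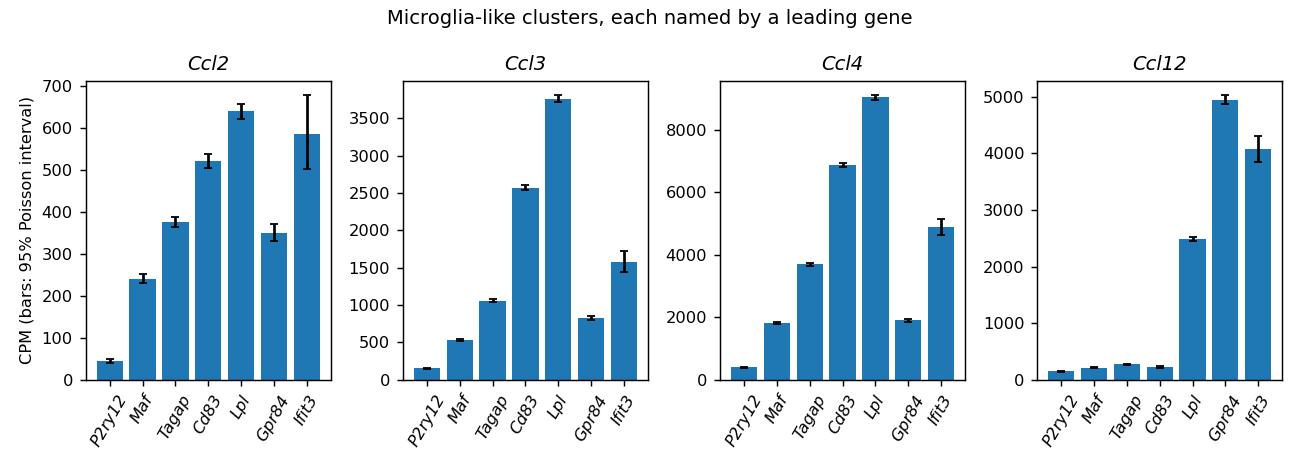
CPM of Ccl2, Ccl3, Ccl4 and Ccl12 in the 7 microglia-like clusters, each named by a leading gene, with exact 95% Poisson intervals. Ccl3 and Ccl4 peak in the Lpl-led cluster (3764 and 9040 CPM) and Ccl12 in the Gpr84-led cluster (4947 CPM).

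Immediate-early and heat shock genes, which can be induced while tissue is dissociated, also differed across these clusters, in an order that followed Ccl3 and Ccl4 from the P2ry12-led to the Cd83-led cluster but not to the Lpl-led one. The summed level of the 13 listed genes (Fos, Fosb, Jun, Junb, Egr1, Ier2, Nr4a1, Atf3, Dusp1, Btg2, Zfp36, Hspa1a and Hspa1b) was 3369 CPM in the P2ry12-led, 13564 in the Maf-led, 28170 in the Tagap-led, 48124 in the Cd83-led, 24292 in the Lpl-led, 7549 in the Gpr84-led and 13816 CPM in the Ifit3-led cluster. The summed level of 5 NF-kappaB targets (Nfkbia, Nfkbiz, Tnfaip3, Tnf and Il1b) was 356 CPM in the P2ry12-led, 710 in the Maf-led and 1481 CPM in the Tagap-led cluster. It was 3676 CPM in the Cd83-led, 3973 in the Lpl-led, 852 in the Gpr84-led and 1190 CPM in the Ifit3-led cluster. By library, the immediate-early sum in microglia-like cells ranged from 20524 to 28717 CPM, with libraries 4 and 6 the lowest, and the NF-kappaB sum from 1349 to 2397 CPM, with libraries 4 and 6 the highest. Their part in the Ccl3 and Ccl4 levels was not tested.

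Over all microglia-like cells, Ccl4 was at 4139 CPM (4121 to 4158) and at 3318, 4259, 3371, 6408, 2560 and 2964 CPM in libraries 1 to 6, and Ccl3 at 1525 CPM (1513 to 1536) and at 1275, 1961, 1025, 2106, 1074 and 1978 CPM. Neither gene showed the step of Ccl12 between libraries, and the highest library was 1.92 times the median for Ccl4 and 1.30 times for Ccl3. Perivascular macrophage-like cells were close to them, with 3126 CPM of Ccl4 and 2442 CPM of Ccl3. Microglia-like Ccl4 was below the perivascular macrophage-like level in library 3 (ratio 0.873, 0.795 to 0.962), the interval of the ratio spanned 1 in library 5 (0.880, lower bound 0.771), and it was above in libraries 4 (1.33) and 6 (4.30, 3.17 to 5.99). For Ccl3 the perivascular macrophage-like level was higher in libraries 3, 4 and 5 (ratios 2.73, 1.72 and 2.51) and lower in library 6 (0.298, 0.207 to 0.414).

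Neutrophil-like cells were the third source of Ccl3 (1369 CPM) and of Ccl4 (2189 CPM) among the named classes, and it lay mainly in 1 of their 2 subclusters. The smaller one (52 cells, led by Acod1, an enzyme of activated myeloid cells, 22 cells of library 4 and 28 of library 6) held 3594 CPM of Ccl3 and 5222 CPM of Ccl4, and the larger one (109 cells, led by S100a9) 436 and 917 CPM. These are ratios of 8.24 (6.92 to 9.86) and 5.70 (5.02 to 6.47). Over all libraries, both members with at least 100 UMIs there were at least 3 times higher in the smaller subcluster, as were 7% of the 643 genes tested. The other 8 members did not reach that count. In library 4 the smaller and larger subclusters gave 279 and 66 Ccl3 UMIs and 561 and 164 Ccl4 UMIs from 22 and 59 cells. In library 6 they gave 294 and 29 Ccl3 UMIs and 266 and 73 Ccl4 UMIs from 28 and 12 cells. The Ccl4 difference per cell was therefore much smaller in library 6 than in library 4.

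Ccl11 (eotaxin) was highest in pericyte-like cells among the named classes, through 1 subcluster of them, and had 0 UMIs in smooth muscle-like cells. Pericyte-like cells held it at 236 CPM (219 to 254) and 62.1% of its 1126 UMIs, fibroblast-like cells at 30.1 CPM (5 UMIs), and it was at 1.37 CPM or less in each other named class. Almost all of the pericyte-like signal came from 1 subcluster of 58 cells, 23 from library 4 and 35 from library 6 and 0 from the other libraries, whose leading gene was Il11, a cytokine of the interleukin-6 family, followed by Ccl11, Stc1, Ednrb and Fstl1. Its 10 leading genes held none of the pericyte markers and 1 fibroblast marker, Dcn (2049 CPM, against 10720 in fibroblast-like and 41.5 in the other pericyte-like cells). All 8 pericyte markers were lower than in the other pericyte-like cells but above 0, with Pdgfrb at 1136 against 1624 CPM, Kcnj8 at 1475 against 1747 CPM, Rgs5 at 773 against 3962 CPM and Atp13a5 at 92.2 against 1375 CPM, while of the 6 fibroblast markers 4 were higher, with Lum at 113 against 0 CPM, Col1a1 at 8.92 against 0.381 CPM and Pdgfra at 5.95 against 0 CPM beside Dcn, and Col1a2 and Slc6a13 were lower. The subcluster is therefore called Il11-led below.

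In the Il11-led cells Ccl11 was at 1945 CPM (1799 to 2100), Ccl2 at 3215 CPM (3026 to 3413) and Ccl7 at 785 CPM (693 to 886). In the 776 other pericyte-like cells they were at 17.1, 27.4 and 3.05 CPM, which gives ratios of 114 (83.9 to 157), 117 (92.4 to 151) and 258 (129 to 603). These 3 members reached the minimum of 100 UMIs only through the Il11-led cells (72 UMIs of Ccl2, 8 of Ccl7 and 45 of Ccl11 in the others), so their number is not read against the 3.21% of 4922 genes that were at least 3 times higher, and the other 7 members did not reach it. Within library 4 the ratios were 148 for Ccl11, 96.6 for Ccl2 and 94.3 for Ccl7. Within library 6 they were 64.4 (17.4 to 539) for Ccl11 and 184 (62.7 to 898) for Ccl2, and Ccl7 had 63 UMIs against 0, at least 26.5-fold higher against a floor of 3 counts over the group. In both libraries the members tested again reached 100 UMIs only through the Il11-led cells. Their number is therefore not read against the backgrounds of 4.05% and 9.23%. Leaving out the top cell of each gene gave 81.4 for Ccl11, 103 for Ccl2 and 168 for Ccl7. UMIs of Ccl2, Ccl7 and Ccl11 were found in 36, 19 and 26 of the 58 cells.

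By library, all pericyte-like cells gave 12.4, 31.6, 8.01, 1035, 30.4 and 208 CPM of Ccl11, and 0, 176, 4.45, 1221, 0 and 881 CPM of Ccl2. The highest pericyte-like library was at least 3 times the median library for Ccl2, Ccl7 and Ccl11, as for 1.89% of the genes tested, and here too the 3 genes reached 100 UMIs only through the Il11-led cells of libraries 4 and 6. Without the Il11-led cells, libraries 4 and 6 were at 32.4 and 7.16 CPM of Ccl11, next to the 8.01 to 31.6 CPM of the other libraries, and at 57.9 and 10.7 CPM of Ccl2, between the 0 and 176 CPM of the others. Ccl7 was at 0 UMIs in pericyte-like cells of libraries 1, 2, 3 and 5. Ccl12, the other gene of this chromosomal group, had 1 UMI in the Il11-led cells. Of the Ccl11 UMIs outside the named classes, 357 lay in an unnamed mural cluster of 48 cells, 66.7% of which were called doublets, all 357 in library 4 and 153 of them in 1 cell.

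**Figure D5:**
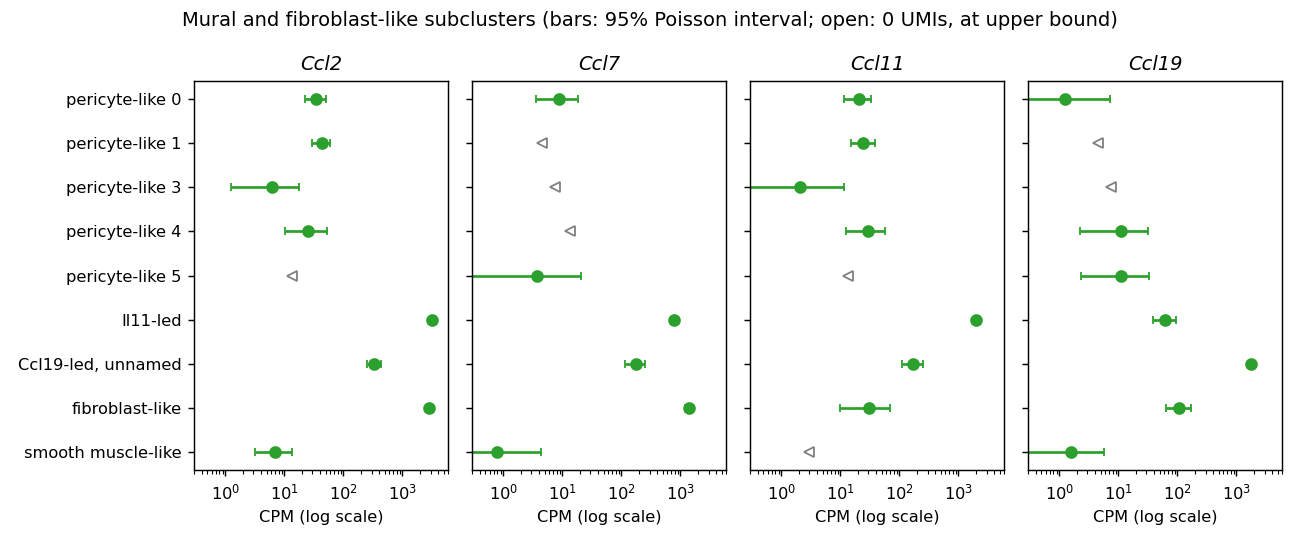
CPM on a log scale of Ccl2, Ccl7, Ccl11 and Ccl19 in mural and fibroblast-like subclusters, with exact 95% Poisson intervals; open triangles mark 0 UMIs and sit at the upper bound. The Il11-led cells are at 3215, 785 and 1945 CPM of the first 3 genes, and the Ccl19-led cells at 1759 CPM of Ccl19.

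Ccl19, the ligand of Ccr7, was the rarest of the ligands, with 342 UMIs in 63 cells. Among named classes it was highest in fibroblast-like cells (109 CPM, 64.3 to 172, 18 UMIs in 6 cells) and next in pericyte-like cells (9.45 CPM). However, 272 of its UMIs lay in 35 unnamed mural cells, whose leading genes were Ccl19, Col3a1, Ogn and Il34 and which held it at 1759 CPM (1556 to 1981) in 29 of 35 cells. All 8 pericyte markers were below the other pericyte-like cells (Rgs5 at 2864 against 3962 CPM, Kcnj8 at 866 against 1747, Pdgfrb at 802 against 1624 and Atp13a5 at 0 against 1375). Of the 6 smooth muscle markers 4 were above them (Acta2 at 1371 against 201 CPM, and 14772 in smooth muscle-like cells), while Cnn1 and Pln were at 0. Of the 6 fibroblast markers 5 were above them (Dcn at 511 against 41.5 CPM, Col1a2 at 239 against 158, Col1a1 at 103 against 0.381, Lum at 71.1 against 0 and Pdgfra at 6.47 against 0 CPM), and Slc6a13 was at 0. These 35 cells were given no name, because their best set, that of pericytes, had a mean log2 ratio of 1.14 and no marker among their leading genes. Unlike the Il11-led cells they were found in every library, with 3, 48, 91, 33, 50 and 47 Ccl19 UMIs from 1, 3, 11, 10, 5 and 5 cells. The Il11-led cells held 21 Ccl19 UMIs (62.5 CPM).

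Ccl5 (RANTES), a T cell and NK cell chemokine, was measured at 6859 CPM (6537 to 7193) in NK-like and 2220 CPM (2061 to 2387) in T lymphocyte-like cells, a ratio of 3.09. Both classes were small. NK-like cells gave 5471, 20117, 8647, 6849, 7626 and 2081 CPM in libraries 1 to 6 from 1, 9, 2, 11, 2 and 7 cells, and T lymphocyte-like cells 752, 946, 3104, 1132, 8261 and 2765 CPM from 2, 17, 7, 15, 2 and 22 cells. NK-like cells were higher in 4 of the libraries and lower in libraries 5 and 6, and without library 2 the ratio was 1.73. Ccl5 was found in 24 of 32 NK-like and 21 of 65 T lymphocyte-like cells, with medians of 58 and 27 UMIs in those cells. Dendritic-like cells followed at 266 CPM, where 12 of 121 cells held it and 153 of 358 UMIs were in 1 cell. It was not detected in endothelial-like cells, 0 of 2665, which leaves room for UMI-positive cells at up to 0.113% and sets no limit on cells that express it.

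Ccl9, a ligand of Ccr1, was highest in the monocyte-derived macrophage-like cells (1113 CPM, 1076 to 1152), of which 85.8% had a UMI (55.2% when thinned to 1000 UMIs per cell), against 1.03% (0.177%) of oligodendrocyte-like cells. It was not confined to them: 27 of 71 perivascular macrophage-like cells (38.0%, not thinned) had a UMI, and microglia-like cells, at 92.2 CPM, held 49.1% of all Ccl9 UMIs. The next classes were perivascular macrophage-like (226 CPM, 180 to 279) and dendritic-like cells (213 CPM, 189 to 240), whose intervals overlapped. Of the libraries with at least 10 cells of both classes, the ratio to perivascular macrophage-like cells was 1.82 (1.35 to 2.53) in library 4 and 6.83 (3.81 to 13.7) in library 6. Compared with microglia-like cells, 3 of the 8 members with at least 100 UMIs were at least 3 times higher in monocyte-derived macrophage-like cells (background 5.28%), namely Ccl9 (12.1 times), Ccl7 (4.66 times, with an interval of 2.56 to 3.50 without its top cell) and Ccr2 (124 times, 103 to 149). Microglia-like cells came from all libraries, and within libraries 4 and 6 the ratios were 10.2 and 7.36 for Ccl9 and 173 and 222 for Ccr2, but 1.87 (1.44 to 2.41) and 3.36 (2.78 to 4.05) for Ccl7. Ccl12 went the other way, at 20.4 CPM against 966 CPM (ratio 0.0211), and so did Ccl4 (0.244) and Ccl3 (0.507).

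Ccr2, the receptor of Ccl2, Ccl7 and Ccl12 on inflammatory monocytes, was at 371 CPM (350 to 394) in monocyte-derived macrophage-like and 343 CPM (312 to 376) in dendritic-like cells. The interval of their ratio spanned 1 (1.08, 0.971 to 1.21), and the order turned with the library, at 1.57 (1.21 to 2.06) in library 4 and 0.890 (0.779 to 1.02) in library 6. NK-like cells followed at 137 CPM and T lymphocyte-like cells at 58.0 CPM. Ccr2 had 135 UMIs in all 8127 microglia-like cells and was not detected in 71 perivascular macrophage-like cells, which leaves room for UMI-positive cells at up to 4.23%. In its leading class the thinned share was itself 24.4%, so cells that express Ccr2 can lack a UMI at this depth.

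Ccl9 and Ccr2 divided the 3 monocyte-derived macrophage-like subclusters differently. The subcluster led by the monocyte genes Plac8 and Chil3 (67 cells, 51 of them from library 4) had over all libraries the highest Ccr2, 778 CPM, and the lowest Ccl9, 607 CPM. The one led by Cxcl3, Thbs1 and Cxcl2 (159 cells) held 384 CPM of Ccr2 and 1403 CPM of Ccl9, and the one led by Clec4n, Lgals3 and Gpnmb (98 cells, 96 of them from library 6) 76.7 and 961 CPM. In library 6 the 3 subclusters, in this order, gave 65, 479 and 68 Ccr2 UMIs from 11, 105 and 96 cells. Their Ccl9 UMIs there were 90, 1536 and 844, so Ccl9 per cell was similar in the Plac8-led and Clec4n-led cells. In library 4 the Plac8-led and Cxcl3-led cells gave 361 and 101 Ccr2 UMIs and 249 and 584 Ccl9 UMIs from 51 and 54 cells. An unnamed cluster of 43 cells led by Retnla and MHC class II genes also held Ccr2 at 454 CPM, together with Ccl4 at 4434 CPM and Ccl3 at 2692 CPM.

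Barcodes with 1 to 50 UMIs, which hold mostly free RNA, carried Ccl4 at 1811, Ccl3 at 707, Ccl12 at 334 and Ccl2 at 208 CPM, so shares of cells with a UMI were read against oligodendrocyte-like cells, which should lack these genes. There, 9.44% of cells had a Ccl4 UMI, 5.78% Ccl3, 2.34% Ccl12 and 2.31% Ccl2 at a median depth of 8889 UMIs, and 2.38%, 1.42%, 0.497% and 0.639% when each cell was thinned to 1000 UMIs. In microglia-like cells (median 5150 UMIs) the shares were 63.4%, 53.7%, 37.9% and 24.5%, and thinned 50.2%, 36.7%, 19.0% and 12.5%. In perivascular macrophage-like cells (median 5333 UMIs) the thinned shares were 35.2%, 49.3%, 45.1% and 40.8%, with 42.3% for Ccl7. Endothelial-like cells had Ccl4 and Ccl3 UMIs in 6.12% and 3.15% of cells before thinning. These were below the oligodendrocyte-like shares, but the endothelial-like cells were also shallower (median 4001 UMIs). Their Ccl2 level, 24.9 CPM, rested on a single cell, of a cluster with the venular gene Ackr1 among its leading genes, with 260 of the 291 UMIs. Ccl2 in that cluster was 52.2 times (32.0 to 90.9) above the other endothelial-like cells, but 2.67 times (1.22 to 5.76) without that cell. Of the 3 members with at least 100 UMIs there, Ccl2 alone was at least 3 times higher. It reached that count only through this cell, so its call is not read against the background of 1.78%. Between libraries, 2 of these 3 members, Ccl2 and Ccl4, had a highest endothelial-like library at least 3 times the median library. Ccl2 was tested here only through that same cell, so this number is not read against the background of 1.85%. Ccl2 was at 2.24 times without that cell, and Ccl4 at 3.20 times without its own top cell.

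Genes of the same chromosomal group were also read together in single cells, each thinned to 1000 UMIs. Among microglia-like cells, 77.9% of those with Ccl3 also had Ccl4, against 34.2% of those without it. In perivascular macrophage-like cells 62.1% of those with Ccl2 also had Ccl7, against 28.6%. In the Il11-led cells 11 of the 12 cells with Ccl7 also had Ccl2. Ccl7 was found there in 35.5% of cells with Ccl2, against 3.70% of those without it. For Ccl11 the shares hardly differed, at 35.5% of cells with Ccl2 and 33.3% of those without it. With and without Ccl7 they were 50% and 30.4%, from few cells. Of the 35 cells with Il11, 24 (68.6%) had Ccl2, against 30.4% of the Il11-led cells in which no Il11 UMI was left. In microglia-like cells Ccl12 was found in 34.4% of cells with Ccl2 and in 16.8% of those without it. Cells richer in any of these RNAs differ in cluster and library, whose part in these shares was not tested.

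Among 25 further genes of the CC family, all were in the matrix and 13 had at least 100 UMIs in cells, 6 of them ligands. Among the named classes, Ccl24, another eotaxin, was highest in perivascular macrophage-like cells (1086 CPM, next class 113 CPM), and Ccl17 and Ccl22, ligands of Ccr4, in dendritic-like cells (196 and 144 CPM). However, perivascular macrophage-like cells held only 29.9% of the 1366 Ccl24 UMIs, and Ccl24 was the first leading gene of an unnamed immune cluster of 37 cells. Ccl6 was highest in neutrophil-like (2433 CPM) and monocyte-derived macrophage-like cells (2151 CPM), Ccl25 in fibroblast-like cells (42.2 CPM, 7 UMIs) and Ccl27a in choroid plexus-like cells (64.4 CPM, 11 UMIs).

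The receptors were ranked over the same named classes. Ccr1, which binds Ccl3, Ccl5 and Ccl9, was highest in neutrophil-like cells (740 CPM). Ccr7, the receptor of Ccl19, was highest in B lymphocyte-like (660 CPM) and dendritic-like cells (524 CPM). Ccr9 was highest in B lymphocyte-like cells (114 CPM, 19 UMIs), and so was Ccr6, at 12.0 CPM from 2 UMIs. However, microglia-like cells held 92.1% of the 140 Ccr6 UMIs and pericyte-like cells 41.8% of the 165 Ccr9 UMIs. The scavenging receptor Ackr1 was highest in endothelial-like cells (54.7 CPM) and Ccrl2 in neutrophil-like cells (1330 CPM). Of all named classes, microglia-like cells held the largest share of the UMIs of Ccr1 (35.2%) and Ccrl2 (70.4%). Ccr3, the receptor of Ccl11, had 60 UMIs in all cells.

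By their pattern over the 16 named classes, the genes outside the CC family most like each member, as Pearson's r of log2(CPM + 1), were these. Ccl3 was followed by the myeloid genes Cd68, Fcer1g and Slc15a3 (r = 0.95, 0.93 and 0.93) and Ccl4 by Fcer1g, Pik3cg and Il10ra (r = 0.96, 0.94 and 0.94). Ccl5 was followed by Klrk1, Pdcd1 and Klre1 (r = 0.94, 0.92 and 0.91), of which Klrk1 and Klre1 encode NK receptors, and Ccl9 by Clec4a3, Fcgr2b and Gm46224 (r = 0.94, 0.93 and 0.93). Ccl11 was followed by Gm50130, Saa1 and Tnxb (r = 0.99, 0.99 and 0.98) and Ccl19 by Fibin, the matrix gene Lum and Cyp1b1 (r = 0.98, 0.97 and 0.97). For the monocyte attractants the nearest genes were Man1c1, Abca9 and Hfe to Ccl2 (r = 0.87, 0.87 and 0.85), Clmp, Dse and Tmem106a to Ccl7 (r = 0.87, 0.84 and 0.82) and Ascl2, Gm30329 and Lilra5 to Ccl12 (r = 0.92, 0.92 and 0.91). Ccr2 was followed by Tnip3, S100a4 and Ptpn7 (r = 0.92, 0.90 and 0.87). The classes share libraries and free RNA, and r is a description over 16 points. Ccl11 and Ccl19 had few or no UMIs in named classes other than pericyte-like and fibroblast-like cells. Their r therefore rests largely on those classes.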

How the data were processed

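The authors deposited 1 matrix of raw UMI counts made with Cell Ranger 5.0.1 (per the file headers) on mm10 (per the labels); the libraries were joined with its aggr step to even out their sequencing depth, which can thin reads, and the annotation was not given in the sources used here. Per the labels, kit versions differ between libraries. The counts were not normalized, and no column was left out. From them, barcodes were kept as cells if their UMIs reached 10% of the percentile 99 among the 3000 deepest barcodes of a library, with at least 200 features and at most 10% mitochondrial UMIs. Counts were scaled to 10000 per cell and logged. The 2000 most variable genes, without CC and hemoglobin genes, gave 30 principal components, and cells were clustered (Leiden, resolution 0.8, leidenalg 0.10.2, Python 3.11.15); mural and non-microglial immune cells were clustered again. A cluster took the marker set with the highest mean log2 ratio if at least 3 markers were 2-fold raised and it led by 0.5. It stayed unnamed if more than 50% of its cells were called doublets or more than 5% of its UMIs were hemoglobin. In the second round it also stayed unnamed if its best set lay outside the family, or was below 1.5 with no marker among its 10 leading genes. The Il11-led cells had no such marker but were at 1.64, whereas the Ccl19-led and Retnla-led cells were at 1.14 and 1.31. Doublets were scored per library against simulated ones and kept. Levels are summed UMIs as CPM with Poisson intervals, ratios carry exact conditional intervals and shares Clopper-Pearson intervals. There is 1 sample, so no test and no p-value is given, and steps were tested on simulated data.

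The members, marker and gene lists were chosen with earlier results of these data known, and the naming thresholds were set after seeing the data. Genes were named as follows: every member; CC family genes of a fixed list with at least 100 UMIs, of which 1 is not reported here; the 3 genes with the highest r to a member; the immediate-early and NF-kappaB lists; leading genes of clusters. Ccr3, and unnamed clusters singled out, were chosen after their values were seen. Positions are from GENCODE vM21 (GRCm38), which held 32235 of 32285 gene IDs. Alternatives covered the cell call, doublets, resolution, principal components, clustering genes, normalization, free RNA, single cells and each library.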

Additional observations from a re-analysis of the deposited data

How the results depend on the processing

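The ratio of the leading to the next class was recomputed for each of the 10 genes under each alternative. Taking off free RNA, and letting CC genes enter the clustering, left all 10 ratios within their counting intervals. With the 2 filters of the study alone, under which 2229 cells stayed unnamed, Ccl2 was at 1.16, Ccl3 at 1.36 and Ccl4 at 1.56. Removing doublets gave 3.92 for Ccl5. At resolution 0.4 the ratios were 0.916 for Ccl2, 1.13 for Ccl4, 2.44 for Ccl11, 1.60 for Ccl12 and 95.9 for Ccl19. Ccl5 had no value there because no NK-like cluster was named. Dendritic-like cells led (265 CPM) and neutrophil-like cells were next (94.5 CPM). T lymphocyte-like cells, at 2220 CPM of Ccl5 in the main setting, were in neither place, so this order holds only among the classes named at that resolution. The fibroblast-like class had 63 cells at that resolution, against 28 in the main setting, and held Ccl19 at 905 against 109 CPM. Ccr2 was at 0.944 at resolution 1.2 and at 0.942 with 20 principal components, where dendritic-like cells led. The mean of the cells' own CPM gave 1.32 for Ccl2, 5.86 for Ccl5, 2.47 for Ccl12 and 25.6 for Ccl19. Leaving out the top cell of each class gave 0.445 for Ccl2, 1.41 for Ccl3, 1.72 for Ccl4, 2.04 for Ccl7, 27.4 for Ccl11 and 1.86 for Ccl12. Of the alternatives chosen after seeing the data, a naming lead of 1 gave 1.45 for Ccr2, and counting the Ccl19-led mural cells as pericyte-like gave 1.13 for Ccl19. Not counting the Il11-led cells as pericyte-like gave 40.7 for Ccl19 and 0.568 for Ccl11, the latter against only 5 fibroblast-like UMIs.

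Leaving out 1 library turned the order for 3 genes, Ccl7 (0.997 without library 4, up to 2.55), Ccl2 and Ccr2, of which Ccl7 alone had an interval above 1 over all libraries. The ranges were 0.130 (without library 2) to 1.92 (without library 4) for Ccl2, 1.24 to 1.92 for Ccl3, 1.21 to 1.64 for Ccl4, 1.73 (without library 2) to 5.54 (without library 6) for Ccl5, 3.56 to 8.56 (without library 4) for Ccl9, 1.83 (without library 4) to 10.3 for Ccl11, 1.14 (without library 3) to 5.60 (without library 4) for Ccl12, 6.62 to 12.5 for Ccl19 and 0.921 (without library 4) to 1.51 for Ccr2. Without library 6, fewer than 20 fibroblast-like cells remained and Ccl2, Ccl7, Ccl11 and Ccl19 had no value. Thinned to 1000 UMIs, the share of cells with a UMI in the leading class was 50.2% for Ccl4, 55.2% for Ccl9, 3.12% for Ccl11, 45.1% for Ccl12, 7.14% for Ccl19 and 24.4% for Ccr2. Without the minimum of 100 UMIs, 18.4% of genes had a leading class at least 3 times the next. Causes of these moves were not tested beyond what each alternative leaves out.

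No paired analysis was possible because no library is tied to a labelled sample. Intervals cover counting error only, and with 1 pooled sample nothing measures the spread between animals. The fibroblast-like, NK-like and perivascular macrophage-like levels rest on 28, 32 and 71 cells. Names were rebuilt, and Ccl2, Ccl5, Ccl11, Ccl19 and Ccr2 depend on them or on single cells. The counts at 3' ends do not separate the copies of Ccl19.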
